A study of Mus musculus with 4 samples.

Results

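Microglia of Trem2 -/- mice fed cuprizone were compared with microglia of Trem2 +/+ mice fed control diet, which asks what is still different after demyelination when Trem2 is missing. The comparison takes 753 of the 885 cells of the knockout library and 479 of the 571 cells of the control library, 1232 of the 3023 cells of the series. Cells of clusters 03 and 07 of the authors' 8 clusters were left out, and unique molecular identifiers (UMIs, 1 for each captured transcript) were summed over the other 6 clusters in each library. The series has 4 libraries, 1 for each group: Trem2 +/+ on control diet, and Trem2 +/+, Trem2 +/- and Trem2 -/- on a diet with 0.2% cuprizone. All mice were males of 12 to 14 months that had been on their diet for 12 weeks. From each hemibrain 30000 live CD11b+ CD45low cells, the gate for microglia, were sorted, and 2 hemibrains were pooled per library before droplet capture with 3′ v2 chemistry. The labels do not name the knockout allele. Genotype and diet both differ between the 2 libraries, and knockout cells from control diet were not analysed here, so the effects of genotype and diet cannot be told apart. With 1 pool a side no test was possible, and every interval below is a 95% interval that covers counting error only.

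Microglia are the macrophages that live in the brain. Their surface receptor TREM2 recognises lipids, and the adaptor TYROBP carries its signal. Cuprizone is a copper chelator that kills oligodendrocytes, so that microglia meet large amounts of myelin debris, which is rich in cholesterol. Microglia near damage or plaques move from a homeostatic state towards the disease-associated state (DAM), and this change has been divided into a first stage that does not need TREM2 and a second stage that does.

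The labels matched the Trem2 levels. Trem2 (chromosome 17, 48346401 to 48354147, plus strand, build mm10) stood at 3132 CPM (counts per 1000000 UMIs of the pool) on control diet, at 2939 CPM in wild type on cuprizone, at 1763 CPM in Trem2 +/- and at 520.1 CPM in Trem2 -/-. The knockout was 6.02-fold below the control (5.79 to 6.26). A 3′ tag may lie outside the deleted part of the gene, and the UMIs left in the knockout are no measure of working receptor. The control pool held 3638474 UMIs and the knockout pool 6514310, with medians of 4717 and 6061 UMIs per cell, and the 2 pools shared 2 cell barcodes. All 13 microglia markers were measured in both pools, between 0.785 and 1.20 times the control level. Neutrophil markers stood apart: their summed count was 2 UMIs in the control pool and 4222 UMIs in 384 knockout cells, and a single knockout cell held 55.3% of the latter. The clusters were filled differently as well. Clusters 05, 06 and 01 held 28.8%, 28.0% and 23.2% of control cells, whereas clusters 02 and 08 held 28.3% and 23.2% of knockout cells and only 16.1% and 2.71% of control cells. Cluster 04 held 1.25% of control and 1.73% of knockout cells, but 18.4% of wild-type and 21.6% of Trem2 +/- cells on cuprizone. The wild-type and Trem2 +/- levels given below include those cells.

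Most genes lay close to the control level. Ordered by the end of the interval nearest 1, the higher genes with at least 200 UMIs began with S100a8, S100a9, Ngp and Camp, which mark neutrophils, followed by Apoe, Lgals3 and Cst7. Of 8826 genes with at least 50 UMIs over both pools, 63 (0.714%) were at least 2-fold higher in the knockout on cuprizone with an interval that excludes 1, and 102 (1.16%) were at least 2-fold lower. The median log2 ratio of all 8826 genes was -0.11. Of these, 6 higher and 30 lower ones were gene models or pseudogenes. With at least 200 UMIs there remained 17 higher and 10 lower genes that carry a name. The split depended on scaling: with TMM factors, which set the median of all genes to 0.01, 77 genes were higher and 63 lower, so the higher genes went from 38.2% to 55% of those called. By the same rule wild type on cuprizone against the same control library had 123 higher genes (1.39% of 8819) and 52 lower genes (0.59%). The 2 comparisons share the control library, so their values are set side by side and no overlap between them is read as a result.

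**Figure D1:**
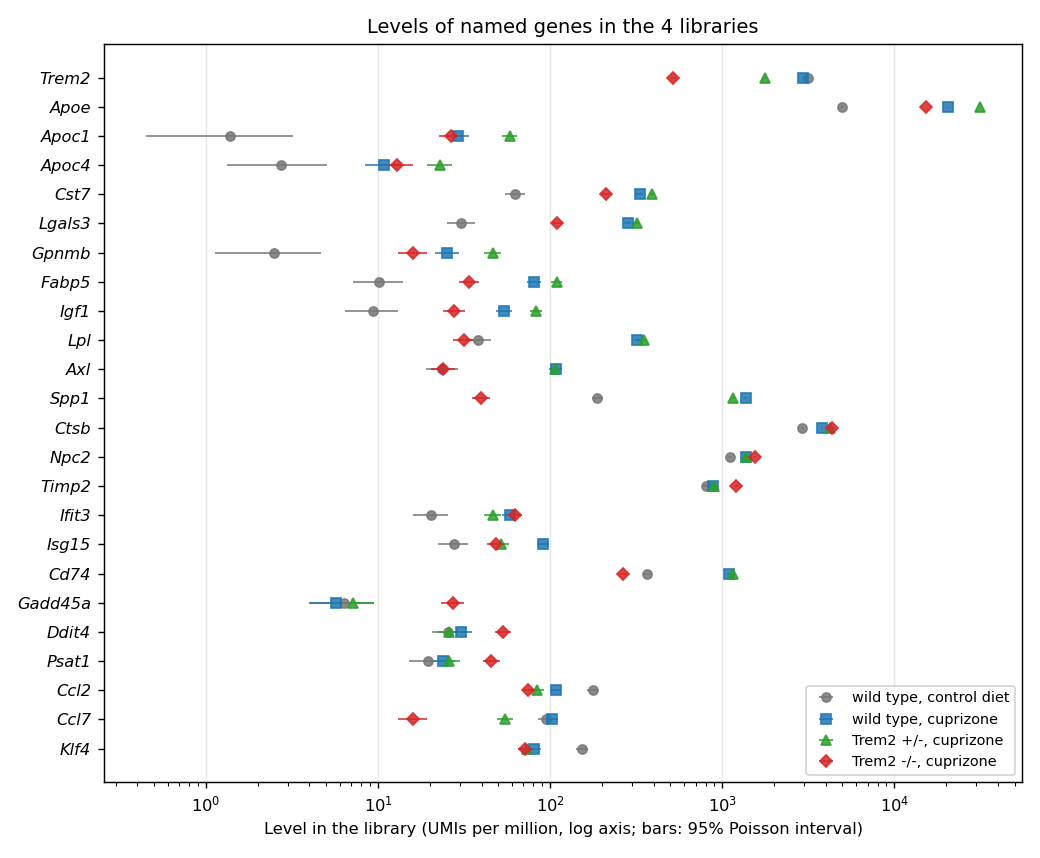
Level of 24 genes in each of the 4 libraries, in CPM on a log axis, with bars for the 95% Poisson interval. Apoe, Cst7 and Lgals3 of the knockout (red diamonds) lie between the control (grey circles) and wild type on cuprizone (blue squares), Lpl and Axl lie at the control level, and Gadd45a, Ddit4, Psat1 and Timp2 lie above all 3 other libraries.

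Apolipoprotein genes of the Apoe locus were well above the control in the knockout. Apoe, which encodes the main lipid carrier of the brain (chromosome 7, 19696109 to 19699188, minus strand), stood at 4956 CPM on control diet (4884 to 5029), at 20386 CPM in wild type on cuprizone, at 31627 CPM in Trem2 +/- and at 15283 CPM in the knockout (15189 to 15379). The knockout level was 3.08 times that of the control (3.04 to 3.13) and 0.75 times that of wild type on cuprizone. All 3 cuprizone libraries thus lay above the control library, and the knockout was the lowest of them. Apoc1, which lies beside Apoe (chromosome 7, 19689481 to 19692660), had 1.37 CPM on control diet and 29.3, 58.3 and 26.4 CPM in wild type, Trem2 +/- and knockout on cuprizone. Its ratio of knockout to control was 19.2 (8.08 to 59.9), from 5 control UMIs, and its log2 ratio went from 4.26 to 3.24 over all deposited cells. Apoc4, which encodes another apolipoprotein of the locus, was 4.69-fold higher (2.43 to 10.1). Over all deposited cells, which adds clusters 03 and 07, the Apoe ratio was 1.93. In those 2 clusters Apoe was high in every library, with medians of 71.0 UMIs per cell on control diet and 93.5 in the knockout at one depth, against 5 and 20 in the pool.

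At one depth per cell the Apoe difference was spread over many knockout cells. Each cell was thinned to 2915 UMIs, which left out 69 shallower control cells and 80 shallower knockout cells. The quartiles of Apoe were 3, 5 and 10 UMIs per cell in 410 control cells, and 7, 20 and 51 in 673 knockout cells. In wild type on cuprizone they were 8, 15 and 60. Of knockout cells 35.5% (31.9% to 39.3%) lay above the 95th percentile of control cells, as did 35.6% of wild-type cells (31.8% to 39.6%) and 52.2% of Trem2 +/- cells on cuprizone. The median Apoe count of knockout cells was thus above, and the upper quartile below, that of wild-type cells on the same diet.

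**Figure D2:**
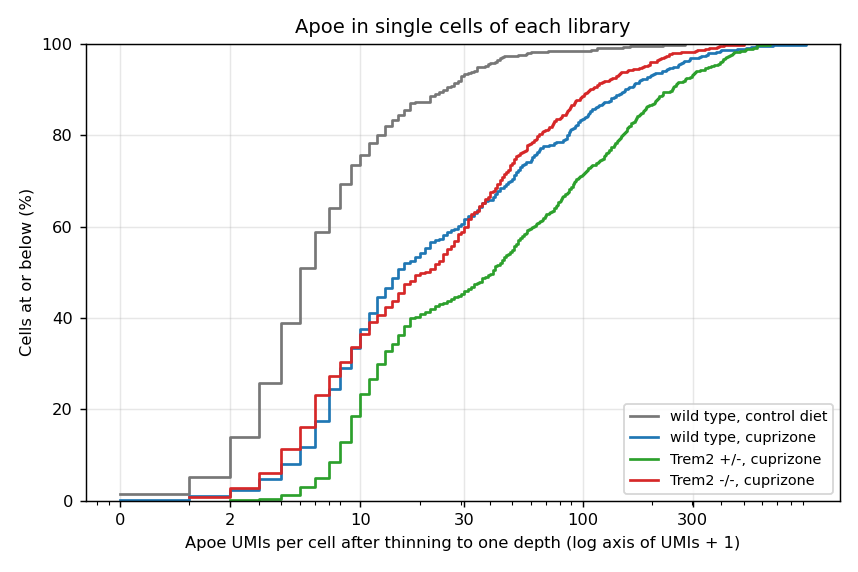
Share of cells (y axis, percent) with at most the number of Apoe UMIs on the x axis (UMIs + 1, log axis), each cell thinned to 2915 UMIs, for the pooled cells of each library. The control curve lies to the left with a median of 5 UMIs, the knockout and wild-type cuprizone curves cross, with medians of 20 and 15, and the Trem2 +/- curve lies to the right.

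Genes of the first DAM stage were all above the control level in the knockout, and Apoe alone of the 7 was at least 1.5-fold higher with an interval that excludes 1, the rule used for every list below (1.61% of all measured genes were higher by it and 5.31% lower). The median log2 ratio of the list was 0.27, against -0.11 for all genes and against 0.37 for the same list in wild type on cuprizone. Ctsb, the lysosomal protease cathepsin B, stood at 2928 CPM on control diet, 3777 in wild type, 4213 in Trem2 +/- and 4362 in the knockout. At 1.49 times the control (1.46 to 1.52) it was the member of the stage that lay higher in the knockout than in both other cuprizone libraries. Tyrobp, the adaptor of TREM2, was at 1.14 times the control level and B2m, the light chain of MHC class I, at 1.12. Lyz2, a lysozyme, and Fth1, the ferritin heavy chain, were at 1.30 and 1.20, and both lay higher in wild type on cuprizone, at 1.67 and 1.54.

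Genes of the second DAM stage split into members above the control level and members at or below it. Of 10 genes 2 were at least 1.5-fold higher in the knockout and 1 lower, with a median log2 ratio of 0.33; in wild type on cuprizone 7 of 10 were higher and 0 lower (2.59% and 4.44% of all measured genes), with a median of 1.27. Cst7, which encodes cystatin F, an inhibitor of lysosomal proteases, had 62.9 CPM on control diet, 331.3 in wild type, 391.4 in Trem2 +/- and 210.0 in the knockout. Its knockout level was 3.34 times the control (2.90 to 3.85) and 0.634 times wild type on cuprizone (0.591 to 0.679). Timp2, an inhibitor of metalloproteases, differed from this order. It stood at 804.7, 880.7 and 898.4 CPM in the control, wild-type and Trem2 +/- libraries and at 1209 CPM in the knockout, 1.502 times the control (1.44 to 1.57). The Timp2 ratio was thus just past the 1.5-fold rule. Its log2 was 0.59, and 0.29 in the lowest alternative setting. Cd9, a tetraspanin, was at 1.35 times the control in the knockout and at 1.31 in wild type.

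Other members of the second stage were near or below the control level. Axl, a receptor for apoptotic cells, had 23.6 CPM on control diet and 23.9 CPM in the knockout, a ratio of 1.01 (0.774 to 1.33), with 108.8 CPM in wild type and 107.0 in Trem2 +/- on cuprizone. Lpl, the lipoprotein lipase, was at 0.828 times the control (0.664 to 1.03) in the knockout and 8.38 times in wild type. The chemokine gene Ccl6 was at 1.08 and 2.06, and the growth factor gene Csf1 at 1.36 and 2.31. Itgax, which encodes the integrin CD11c, had 34 control and 28 knockout UMIs and was 2.17-fold lower than the control (1.28 to 3.72), and it was short of 2-fold with TMM scaling (ratio 0.50) and after its richest cell in either library was dropped (0.559).

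Further disease-associated genes showed the same mixture. In the knockout 6 of 16 were at least 1.5-fold higher and 1 lower, with a median log2 ratio of 0.45, and in wild type 16 of 17 were higher, with a median of 2.13. Lgals3, a galectin that binds damaged lysosomes, stood at 30.5, 281.9, 318.5 and 110.2 CPM in the control, wild-type, Trem2 +/- and knockout libraries. It was 3.61-fold higher in the knockout than in the control (2.95 to 4.45). The fatty acid carrier gene Fabp5 was 3.32-fold higher (2.34 to 4.84) and the growth factor gene Igf1 2.96-fold (2.04 to 4.402), though Igf1 was at 1.68 over all deposited cells. At one depth 23.3% of control cells and 24.2% of knockout cells of clusters 03 and 07 had an Igf1 UMI, against 2.44% and 5.65% in the pool. Gpnmb, a glycoprotein of lysosomes under lipid load, had 15.96 CPM against 2.47, with all 9 control UMIs in 1 cell, and its log2 ratio went from 2.69 to 1.49 in thinned cells. Mmp12, a macrophage elastase, was 6.54-fold higher, but a single knockout cell held 70.7% of its UMIs, and with clusters 01, 02, 05 and 06 weighted equally, an alternative chosen after seeing the data, the log2 ratio went from 2.71 to 0.48. The cytoskeletal genes Vim and Capg were at 1.03 and 0.893 times the control, where wild type was at 2.51 and 2.60. Spp1, which encodes osteopontin, stood at 188.0 CPM on control diet and 39.8 in the knockout, 4.73-fold lower (4.09 to 5.48), with 1370 CPM in wild type on cuprizone. A single control cell held 52.5% of the control Spp1 UMIs. Leaving out the richest cell of either library gave a ratio of 0.332. At one depth 4.63% of control cells (2.81% to 7.14%) and 4.01% of knockout cells (2.66% to 5.78%) had an Spp1 UMI, with 29.8% in wild type on cuprizone.

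**Figure D3:**
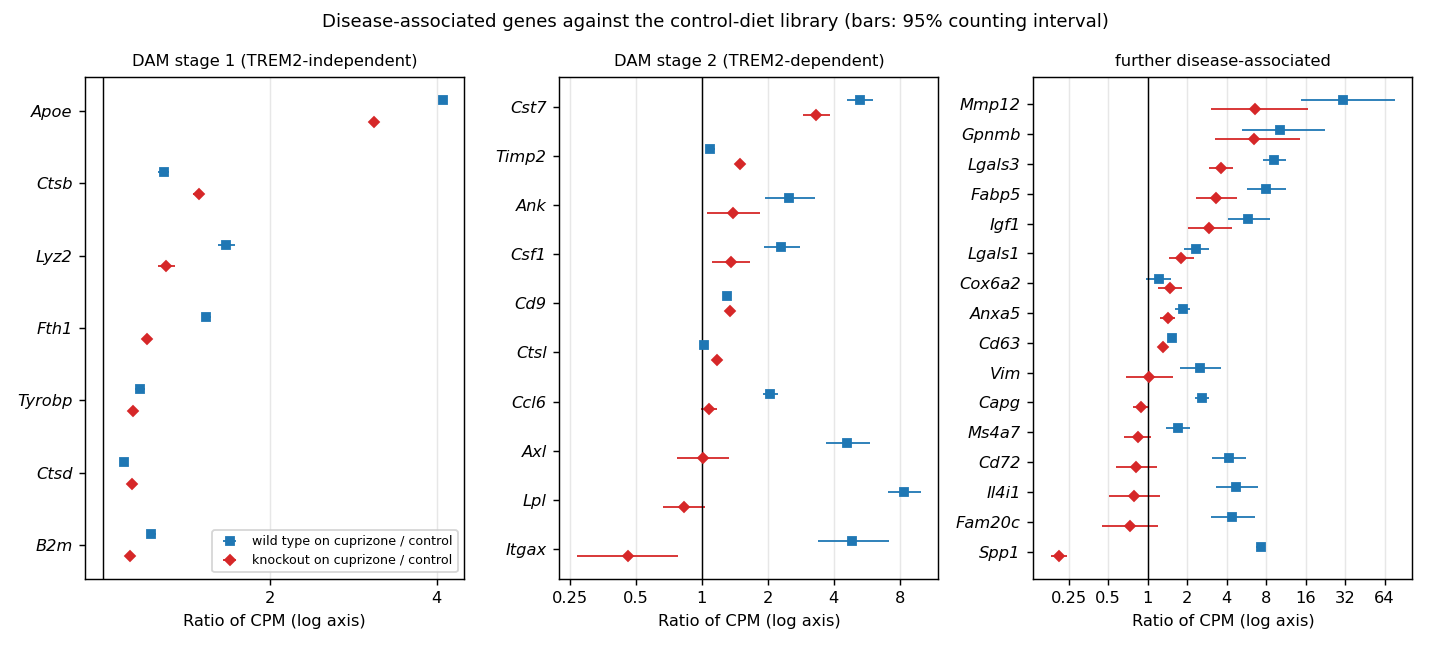
Ratio to the control-diet library on a log axis, with 95% counting intervals, for measured members of the 3 disease-associated lists, in the knockout on cuprizone (red diamonds) and in wild type on cuprizone (blue squares). Members are ordered by the knockout ratio, which runs from 3.08 for Apoe to 1.12 for B2m in the first stage, from 3.34 for Cst7 to 0.46 for Itgax in the second, and down to 0.211 for Spp1 in the third list.

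Lipid genes outside the Apoe locus were called in both directions, several of them from few UMIs or in some settings only. For cholesterol transport and targets of the sterol receptor LXR, 4 of 17 genes were at least 1.5-fold higher and none lower, and the median log2 ratio was 0.11. Beside Apoe, Apoc1 and Apoc4 the fourth was Nceh1, a cholesteryl ester hydrolase, at 1.57 (1.18 to 2.12), whose log2 ratio was 0.04 with equal cluster weights. Abcg1, a cholesterol exporter, had 62.4 CPM on control diet, 58.6 in wild type, 69.4 in Trem2 +/- and 90.4 in the knockout, 1.45 times the control (1.24 to 1.70). Npc2, which hands cholesterol out of the lysosome, was at 1.39 (1.34 to 1.45) in the knockout and 1.23 in wild type. Gramd1b, which moves sterol from the plasma membrane to the endoplasmic reticulum, was named after its values were seen: it had 4.67, 2.91, 5.95 and 14.4 CPM in the 4 libraries and was 3.09-fold higher in the knockout than in the control (1.83 to 5.52). For cholesterol synthesis and uptake 0 of 14 genes were higher, 2 were lower and 11 lay below a ratio of 1, with a median log2 ratio of -0.30. Insig1, which retains the sterol sensor in the endoplasmic reticulum, was 1.71-fold lower (1.21 to 2.43) but above the control in cells thinned to one depth (log2 ratio 0.49), and the kinase gene Mvk of the mevalonate pathway 1.92-fold lower (1.11 to 3.33), from 58 UMIs over both libraries. Of 12 genes for lipid droplets and fatty acids 3 were higher and 1 lower (median 0.09). They were Fabp5, Fabp3 at 4.28 (log2 ratio 2.098, and 0.83 with equal cluster weights), the mitochondrial carnitine transferase gene Cpt1a at 2.17 (1.26 to 3.94), and Dgat1, which makes triglycerides, at 0.629. Cpt1a had 83 UMIs over both libraries and was at 1.84 with equal cluster weights.

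Lysosomal genes lay near the control level. By the 1.5-fold rule 1 of 31 was higher, the proton pump subunit gene Atp6v1a at 1.51 (1.20 to 1.91), 0 were lower, and the list median was 0.05. Ctsb and Npc2 had the next largest ratios, and Cd63, a tetraspanin of late endosomes, was at 1.31. The sequence TCACGTGA, the E-box core of many lysosomal genes, was searched on both strands in RefSeq promoter windows (250 bases before to 50 after a start, GRCm38.p6). It was found for 5 of the 25 lysosomal genes with a window (Ctsa, Ctsd, Mcoln1, Atp6v0d1 and Atp6v1a) and for 1.12% of all 27025 genes. A longer form of 10 bases, with 1 further base at each end, was searched in the same windows. This longer form was found for 0 of the 25 lysosomal genes and for 0.37% of all 27025 genes. A match of either form is a description of the window and not a measured site.

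Several genes were higher in the knockout on cuprizone than in all 3 other libraries. Gadd45a, a stress gene linked to p53, had 6.32 CPM on control diet (4.01 to 9.49), 5.67 in wild type, 7.17 in Trem2 +/- and 27.2 in the knockout (23.3 to 31.5). Its ratio to the control was 4.30 (2.78 to 6.96), and that of wild type was 0.897. Ddit4, an inhibitor of mTORC1 under stress, stood at 25.6, 30.4, 25.9 and 53.4 CPM in the control, wild-type, Trem2 +/- and knockout libraries, 2.09 times the control (1.66 to 2.66) in the knockout. Psat1, an enzyme of serine synthesis, stood at 19.5, 23.8, 25.9 and 45.6 CPM in the same order, a ratio of 2.34 (1.80 to 3.07). Hist2h2aa1, a replication-type histone gene with a near-identical copy that makes its count uncertain, was 2.54-fold higher (2.04 to 3.20), with wild type at 1.02. Few other members of their lists were called. For p53 and the integrated stress response, 2 of 9 genes (Gadd45a and Ddit4) were higher, 0 lower, and the median was -0.01 (0.11 with TMM scaling), with Atf4, the transcription factor of that response, at 0.79. For the cell cycle, 0 of 10 were called either way (median -0.04).

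Genes of the interferon response, a defence against viral nucleic acids, had the largest share of higher members of the 24 gene lists. Of 25 genes 10 were at least 1.5-fold higher and 0 lower, 23 lay above a ratio of 1, and the median log2 ratio was 0.48. In wild type on cuprizone 17 of 26 were higher, with a median of 0.93. Ifit3, which restrains viral RNA, had 20.3 CPM on control diet (15.97 to 25.5), 58.3 in wild type, 46.5 in Trem2 +/- and 62.2 in the knockout (56.3 to 68.5), 3.06 times the control (2.38 to 3.97). Isg15, a ubiquitin-like modifier, stood at 27.5, 91.0, 51.7 and 48.4 CPM in the same order, 1.76 times the control (1.40 to 2.23) in the knockout. For Ifit3 the knockout thus lay at the wild-type cuprizone level, with a ratio of 1.07 (0.923 to 1.23), and for Isg15 below it, at 0.531 (0.461 to 0.611). The other 8 higher members were Ifit1 (3.86), Zbp1 (2.73), Rsad2 (2.60), Oas1a (2.098), Ifit2 (1.83), Irf7 (1.80), Rtp4 (1.61) and Ifi204 (1.57). With equal cluster weights Rsad2 was at 1.04, Ifit1 at 1.61 and Oas1a at 1.70, and with means of per-cell CPM Rsad2 was at 1.703 and Zbp1 at 1.72. A single knockout cell held 29.1% of the Rsad2 UMIs. These transcripts were sparse: 8.47% of knockout cells and 3.90% of control cells had an Ifit3 UMI at one depth, against 10.0% and 8.14% of cells in clusters 03 and 07. Cluster 08 held 19.5% of knockout UMIs and 2.33% of control UMIs, and without its cells the median log2 ratio of the interferon list was 0.46. Over all deposited cells the Isg15 log2 ratio was -0.02.

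Promoters are shown for those higher interferon genes whose window holds the core of the interferon-stimulated response element. They were picked for holding it. The letters GAAA, any 2 bases and GAAA again were searched on both strands of the RefSeq windows. They were found for 11 of the 19 listed interferon genes with a window, for 2 of 12 MHC class I genes and for 3.99% of all 27025 genes. Of the 10 higher members 7 had a window and 5 of these held the letters, and of the other 16 members 12 had a window and 6 held them. Each run below is the 150 bases before the start of the gene, 5′ to 3′ on the strand of the gene, with every whole match in capitals (a match on the other strand reads TTTC, 2 bases and TTTC), from RefSeq on build GRCm38.p6. Ifit1 lies on the plus strand at chr19:34640739-34640888, Ifit3 on the plus strand at chr19:34583379-34583528, Isg15 on the minus strand at chr4:156200819-156200968, Oas1a on the minus strand at chr5:120907526-120907675 and Rsad2 on the minus strand at chr12:26456453-26456602.
Ifit1: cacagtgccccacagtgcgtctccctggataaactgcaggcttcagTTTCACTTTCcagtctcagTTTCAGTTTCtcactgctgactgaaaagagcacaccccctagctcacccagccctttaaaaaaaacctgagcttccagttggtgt
Ifit3: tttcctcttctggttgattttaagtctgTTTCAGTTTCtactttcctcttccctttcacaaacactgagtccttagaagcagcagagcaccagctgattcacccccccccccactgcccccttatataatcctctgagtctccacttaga
Isg15: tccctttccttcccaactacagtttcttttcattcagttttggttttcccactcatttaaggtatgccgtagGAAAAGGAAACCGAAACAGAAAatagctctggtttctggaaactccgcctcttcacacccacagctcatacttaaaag
Oas1a: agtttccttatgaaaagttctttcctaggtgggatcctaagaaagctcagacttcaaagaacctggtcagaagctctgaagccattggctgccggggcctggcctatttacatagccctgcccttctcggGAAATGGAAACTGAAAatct
Rsad2: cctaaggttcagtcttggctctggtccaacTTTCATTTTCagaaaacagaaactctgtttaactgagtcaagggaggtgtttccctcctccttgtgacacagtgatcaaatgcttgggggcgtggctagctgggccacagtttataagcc
Overlapping matches in Isg15 and Oas1a merge into 1 stretch of capitals, and another Ifit3 match begins 156 bases before the start of the gene, so the edge of the run divides it and its last bases are left in lower case. A match names letters in a window and says nothing of binding in these cells.

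No measured antigen presentation gene was at least 1.5-fold higher in the knockout. For MHC class II, 0 of 6 genes were called in the knockout, all 6 lay below a ratio of 1 and the median was -0.25, whereas 4 of 6 were higher in wild type on cuprizone, with a median of 1.20. Cd74, the invariant chain, stood at 365.5 CPM on control diet, 1097 in wild type, 1156 in Trem2 +/- and 266.2 in the knockout, 0.728 times the control (0.678 to 0.783). H2-Aa, a class II chain, was at 0.955 (0.808 to 1.13). Border-associated macrophages carry MHC class II, and 7 of their 8 measured markers lay below 1 (median -0.27, 1 of 8 at least 1.5-fold lower), with summed levels of 356.7 CPM on control diet and 289.7 in the knockout; their part in the class II values was not tested. For MHC class I 0 of 13 genes were called higher and 1 lower (median -0.06), the non-classical H2-T23 at 1.53-fold lower (1.34 to 1.75). Of the 13 genes, 6 lay above a ratio of 1 and 7 below.

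Chemokine genes were mostly at or below the control level. Of 17 cytokine and chemokine genes 1 was at least 1.5-fold higher and 3 lower, with a median log2 ratio of -0.23 against 0.60 in wild type on cuprizone. Ccl2, which attracts monocytes, had 176.4 CPM on control diet (163.1 to 190.6), 107.7 in wild type, 84.2 in Trem2 +/- and 74.8 in the knockout (68.3 to 81.7), 2.36-fold lower than the control (2.09 to 2.66). Every cuprizone library was below the control for Ccl2, the knockout most. Ccl7, its neighbour on chromosome 11, stood at 94.3, 102.2, 54.9 and 15.96 CPM, 5.90-fold lower in the knockout (4.73 to 7.43), with wild type at 1.08 times the control. The log2 ratio of Ccl7 was -2.56, and it was -1.21 over all deposited cells, -1.69 with means of per-cell CPM and -1.84 in thinned cells. Clusters 03 and 07 had more Ccl7 than the pool, with means of 2.95 and 0.171 UMIs per control cell at one depth. In cluster 02, which held 268 of the control Ccl7 UMIs, 5 of 7 border-associated macrophage markers were at least 1.5-fold lower (median -0.72). Of all 7218 genes measured in that cluster, 358 were lower by the same rule (median -0.07). The part of border-associated macrophages in the Ccl7 values was not tested. Over all deposited cells Ccl2 was at 0.676. Cxcl2, a neutrophil attractant, was 2.79-fold lower than the control (1.80 to 4.36), from 92 UMIs over both libraries, with wild type 3.21-fold higher. Ccl5 was the higher member, at 2.86 (2.25 to 3.68), with 36.3% of control and 29.5% of knockout UMIs in 1 cell each; it is also a marker of T and NK cells, whose other 2 markers in the data had 0 and 1 UMI. Ccl3 and Ccl4, the most abundant members, were at 0.92 and 0.91.

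Few homeostatic genes were called. Of 22 genes 0 were at least 1.5-fold higher and 2 lower, 20 lay below a ratio of 1 and the median was -0.23, against -0.11 for all genes and -0.34 for the list in wild type on cuprizone. Within clusters 01, 02, 05 and 06 the medians were -0.0022, -0.11, -0.02 and -0.13. The lower pair were Klf2, a transcription factor, at 1852 CPM on control diet, 1077 in wild type, 1193 in Trem2 +/- and 1109 in the knockout (1.67-fold lower, 1.61 to 1.73), and Upk1b, a membrane protein of microglia, 1.51-fold lower (1.35 to 1.69). P2ry12, the purine receptor that guides resting processes, was at 0.849 in the knockout and 0.712 in wild type. Fcrls, an Fc receptor-like gene, was above the control, at 1.20 (1.16 to 1.24), and at 0.839 in wild type. The transcription factor gene Klf4 had 153.4, 80.8, 73.3 and 71.7 CPM in the 4 libraries and was 2.14-fold lower in the knockout (1.89 to 2.42). Nupr1, a stress-induced nuclear protein gene, had 121.8, 64.1, 71.6 and 59.4 CPM and was 2.05-fold lower (1.78 to 2.36). For Klf2, Klf4 and Nupr1 the 3 cuprizone libraries lay close together and below the control. With TMM scaling Klf4 and Nupr1 were just short of 2-fold, at 0.508 and 0.531 times the control.

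Among the 10 called genes with at least 200 UMIs whose knockout level was nearest that of wild type on cuprizone were, beside Ccl5, Ifit3, Nupr1, Klf4, Apoe, Ccl2 and Cst7, the sulfotransferase gene Chst2 at 2.05 times the control (1.503 to 2.84), the calmodulin regulator gene Pcp4 at 2.12 (1.58 to 2.91) and Ube2v1, a ubiquitin-conjugating enzyme variant, 2.57-fold lower (1.94 to 3.42). Chst2 and Pcp4 were short of 2-fold without cluster 08 (1.58 and 1.98) and with equal cluster weights (1.52 and 1.93). The 10 genes called in wild type, with the same minimum, whose knockout level was nearest the control were Crip1, Axl, Fxyd5, Vim, H2-Aa, Ccl6, Capg, Phlda1, Lpl and Vat1. Crip1, a LIM-domain protein gene, had 36.0 CPM on control diet and 36.1 in the knockout, with 132.6 and 163.1 in wild type and Trem2 +/- on cuprizone. These lists were picked by those ratios and are given as a description. Some genes lay below both wild-type libraries. The adhesion gene Vcam1 was 2.08-fold lower than the control (1.56 to 2.77; 1.91-fold with TMM scaling and 1.66-fold over all deposited cells), and Slamf8, a receptor that restrains the phagocyte oxidase, named after its values were seen, 3.05-fold lower (2.22 to 4.22) with wild type at 1.11.

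The other lists gave few calls. Phagocytosis receptors and bridging ligands had 0 of 16 members called (median -0.11), complement 0 of 8 (-0.11), TREM2 signalling partners 0 of 10 (-0.11) and the NADPH oxidase 0 of 6 (-0.09), with its catalytic subunit gene Cybb at 0.727 against 4.59 in wild type. With TMM scaling the medians of these 4 lists, of MHC class I and of the cell cycle became positive, between 0.01 and 0.08. The iron median became 0.00. Iron handling had 1 of 6 lower, the ferritin receptor gene Ncoa4 at 2.80-fold lower (median -0.12), and copper handling and antioxidants 1 of 14 higher, the metallothionein gene Mt2 at 2.07 (1.42 to 3.11; median 0.08). Mt2 was at 1.69 over all deposited cells and at 1.46 with equal cluster weights. Glycolysis had 1 of 14 lower, the glucose transporter gene Slc2a1 at 1.51-fold lower (1.16 to 1.97; median 0.15). Immediate early and dissociation genes had 2 of 16 lower, Klf4 and Hspa1b, a heat shock gene, with a median of -0.26. Among mitochondrially encoded genes 1 of 12 was lower, mt-Atp8, whose reading frame overlaps mt-Atp6 (median 0.05). Cytosolic ribosomal protein genes had 0 of 82 called but 80 above a ratio of 1, with a median log2 ratio of 0.39 (0.33 in wild type), and with TMM scaling 15 were called higher.

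**Figure D4:**
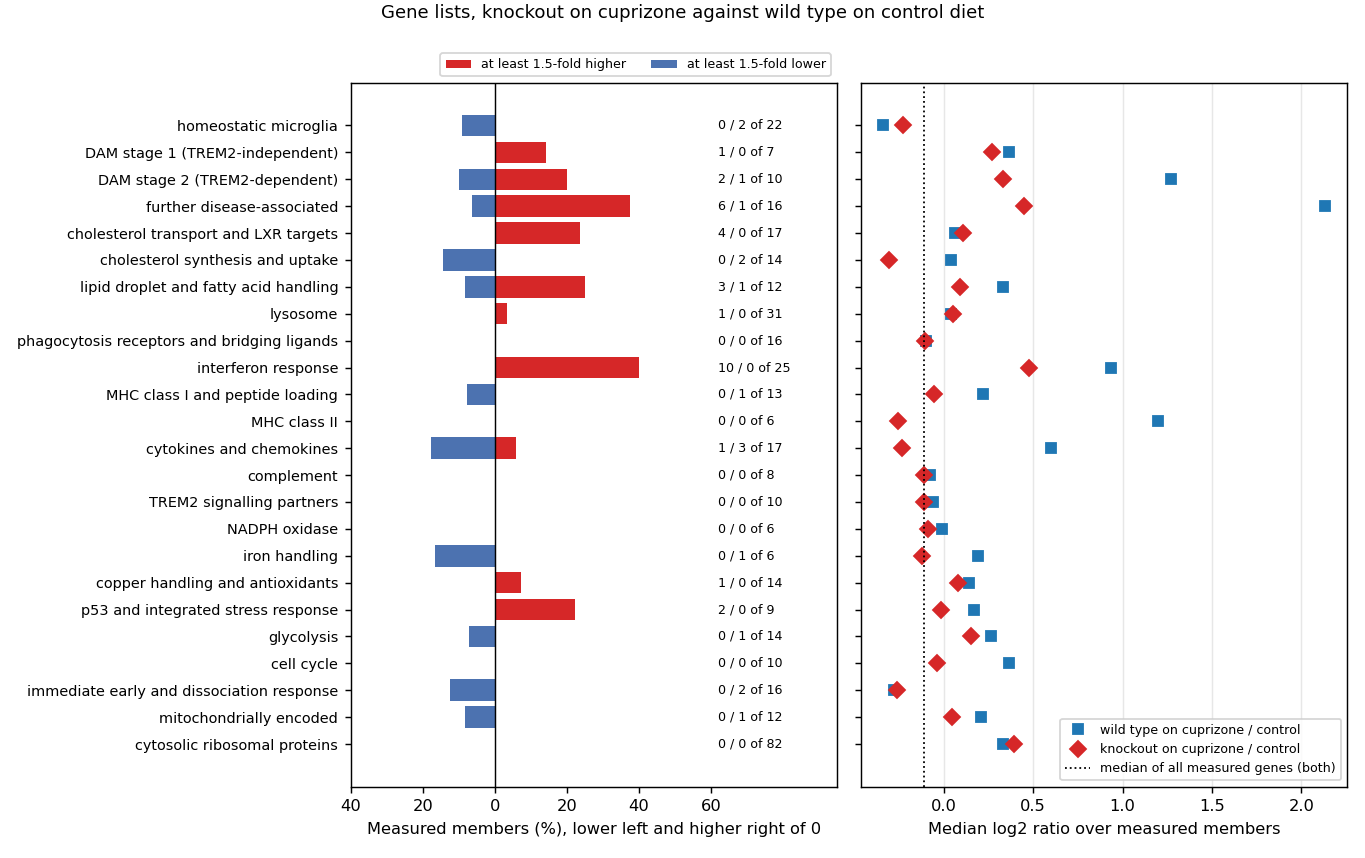
Left, share of measured members of each list at least 1.5-fold higher (red, right of 0) or lower (blue, left of 0) in the knockout on cuprizone than in the control, with the counts printed. Right, median log2 ratio to the control for the knockout (red diamonds) and wild type on cuprizone (blue squares), with the median of all measured genes at -0.11 as a dotted line. The interferon list has the largest share of higher members, 10 of 25, and MHC class II and further disease-associated genes show the widest gaps between the 2 comparisons.

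Markers of other cell types were measured beside these results. S100a8, Ngp, S100a9 and Camp, abundant transcripts of neutrophils and their precursors, had 0 control UMIs. With a floor of 3 UMIs for the control library their ratios of knockout to control were 334, 122, 166 and 111. The lower ends of their intervals were 272, 98.9, 134 and 90.3. A single knockout cell held 59.9% of the S100a8 UMIs. The log2 of the S100a8 ratio went from 8.39 to 7.07 without that cell and to 5.30 without the 1% of cells with the largest neutrophil sums. In the knockout pool 24.2% of cells had at least 1 S100a8 UMI. At one depth that share was 9.81% (7.67% to 12.3%) in the pool and 10.8% in clusters 03 and 07 of the same library, against 0 of 410 control cells, which allows up to 0.896% by the exact interval. The summed neutrophil level was 0.55 CPM on control diet, 48.7 in wild type, 1778 in Trem2 +/- and 648.1 in the knockout, highest in Trem2 +/-. Once the 1% of cells richest in neutrophil transcripts were dropped, 53 genes were at least 2-fold higher and 105 lower.

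Among myelin genes of oligodendrocytes, Mbp was at 1.55 times the control, Mag at 0.804 and Cnp at 0.857. The monocyte median was 1.84 over 2 members, Chil3 and Ms4a4c. Chil3 had 0 control UMIs and a ratio of 10.1 with the floor of 3 UMIs (lower interval end 7.90), and Ms4a4c was at 1.27. A single knockout cell held 77.8% of Chil3 UMIs. Without the top cell of each gene Chil3 was at 2.23 and the monocyte median at -0.09, and without the 1% of cells richest in neutrophil transcripts they were at 1.33 and 0.31. Jchain, an immunoglobulin chain of plasma cells, had 656 control and 3 knockout UMIs, with 97.9% of the former in 1 cell. Cd79b of B cells was at 1.03, Cd209a of dendritic cells 1.61-fold lower, Pecam1 of endothelium at 0.842, the astrocyte pair at 0.911 and 0.914, and Ttr of choroid plexus 1.71-fold lower. Hbb-bs of red cells had 0 control UMIs and a ratio of 9.50 with the floor (lower interval end 7.45). Oligodendrocyte precursor, neuron and pericyte markers had no member with 50 UMIs. The part of these cells in the results above was not tested. Dropping the control cell and the knockout cell with the most UMIs of such markers left 56 genes higher and 102 lower.

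Within the authors' clusters some differences kept their direction in each cluster and others did not. Clusters 01, 02, 05 and 06 each held at least 30 cells of both libraries, with 122, 213, 96 and 134 knockout cells and 111, 77, 138 and 134 control cells. The Apoe ratio was 2.29 in cluster 01 (2.11 to 2.48), 1.73 in cluster 02 (1.70 to 1.77), 1.61 in cluster 05 (1.52 to 1.70) and 3.27 in cluster 06 (3.06 to 3.49), against 3.08 over the pool. Cst7 was at 2.97, 3.19, 1.31 and 3.78 in the same order, and its interval in cluster 05 (0.879 to 1.94) holds 1. Ddit4 was at 3.92, 1.83, 2.998 and 2.90 and Hist2h2aa1 at 2.47, 2.37, 2.77 and 2.22, with all 8 intervals above 1. Ccl2 (0.589, 0.379, 0.212 and 0.363), Nupr1 (0.336, 0.498, 0.456 and 0.562) and Klf2 (0.645, 0.729, 0.727 and 0.41) lay below the control in each cluster.

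Other genes were uneven across clusters. Gadd45a was at 8.74 in cluster 02 (3.29 to 32.8) and 1.06 in cluster 06 (0.244 to 4.61), and Psat1 at 2.19 in cluster 02 and 0.747 in cluster 01. Ccl7 was at 0.109 in cluster 02 and 3.18 in cluster 06 (1.10 to 11.2), from 5 control and 15 knockout UMIs there. With equal cluster weights the log2 ratio of Gadd45a was 1.44, against 2.104 over the pool, and that of Psat1 was 0.50, against 1.22. Ctsb was above the control in each of the 4 clusters, at 1.11, 1.39, 1.19 and 1.24, and Timp2 in 3 of them, with 0.997 in cluster 01. Interferon genes gave fewer calls within clusters 01, 02, 05 and 06. In that order 1 of 5, 2 of 19, 2 of 12 and 2 of 7 measured members were at least 1.5-fold higher. Among all measured genes the counts were 52 of 2392, 107 of 7218, 97 of 4386 and 62 of 2621. Isg15 was at 1.06 in cluster 02 (0.765 to 1.48). The MHC class II medians were -0.04, -0.57, -0.57 and -0.69. With the 4 clusters given equal weight the median log2 ratio was 0.06 for the first DAM stage, 0.20 for the second and 0.01 for further disease-associated genes, against 0.27, 0.33 and 0.45 over the pool.

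**Figure D5:**
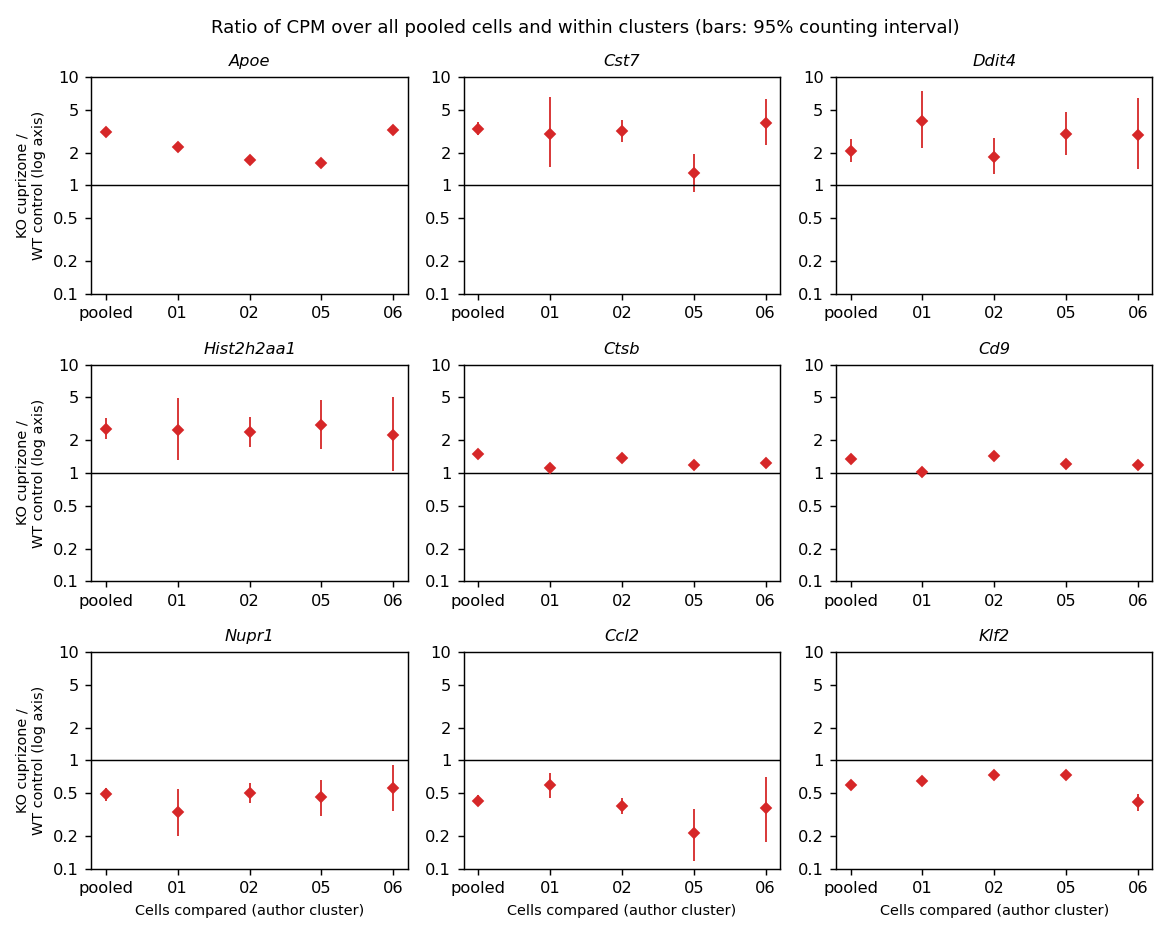
Ratio of knockout on cuprizone to control diet on a log axis, with 95% counting intervals, over all pooled cells and within clusters 01, 02, 05 and 06 of the authors, for 9 genes. Apoe lies above 1 in all 4 clusters and below its pooled value in 3 of them, and Nupr1, Ccl2 and Klf2 lie below 1 throughout.

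Single cells at one depth showed small shifts in many cells for abundant genes. Ctsb had medians of 8 UMIs per cell on control diet, 9 in wild type, 10 in Trem2 +/- and 11 in the knockout, and 21.0% of knockout cells (17.9% to 24.2%) lay above the 95th percentile of control cells. For Timp2 the share above that percentile was 19.6% in the knockout (16.7% to 22.8%), 7.45% in wild type and 6.52% in Trem2 +/-. For Npc2 it was 13.8%, 7.28% and 7.45%. Sparse genes differed in the share of cells with a UMI. Cst7 was detected in 14.9% of control cells (11.6% to 18.7%) and 34.3% of knockout cells (30.7% to 38.0%), with 9.30% and 18.3% in clusters 03 and 07 of those libraries; before thinning the pool shares were 22.8% and 53.3%. Lgals3 was detected in 4.15% of control cells, 9.21% of knockout cells and 22.4% of wild-type cells on cuprizone, but in 16.7% of knockout cells of clusters 03 and 07, so its share in the pool is no higher than in cells outside it. Gadd45a was detected in 6.39% of knockout cells (4.66% to 8.51%) and 1.71% of control cells (0.689% to 3.49%), with 5.83% and 1.16% in clusters 03 and 07, and Ddit4 in 12.8% and 6.83%, with 10.0% and 6.98% there.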

How the data were processed

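Single-cell RNA sequencing of sorted microglia gave 4 libraries, 1 for each group. The deposited table holds raw UMI counts per gene and cell for 12800 genes, each with a UMI in at least 8 cells. Reads were processed with Cell Ranger 2.1.1 on build mm10, per the submitters' processing notes. The gene annotation behind the counts is not given in the sources used here; positions are from the GENCODE annotation of the same build, matched by gene ID. Low-quality cells had been removed and the libraries combined, per the notes with the files. Clusters are the authors', drawn from 4895 genes. No doublet caller was run.

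UMIs were summed per library over 6 clusters and divided by the pool total. Genes needed 50 UMIs over both libraries. A gene was called at 2-fold (lists at 1.5-fold) where the exact conditional binomial (Clopper-Pearson) 95% interval of the ratio excludes 1. CPM intervals are exact Poisson, and shares of cells are exact binomial. A library at 0 was set to a floor of 3 UMIs. PCR duplicates are collapsed by UMIs, but pooled animals are not replicates, so intervals and floors cover counting error only. Named genes are Trem2, up to 15 called genes in each direction (200 UMIs or more) ranked by how far the inner end of the interval lies from 1, the 10 called genes nearest wild type on cuprizone, the 10 wild-type calls nearest control, and from each list the called members and those with the largest ratio, the smallest ratio and the most UMIs. Other genes, such as Abcg1, Npc2, Csf1 and Atf4, were chosen after their values were seen. The values of 1 listed marker gene are not reported here. Members and lists were chosen with earlier results of these data known.

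Alternatives were TMM factors (edgeR 4.0.16) and size factors (DESeq2 1.42.0, used for scaling alone), other UMI minimums, other cell sets including one without the 2% deepest cells, thinning, per-cell means and dropping the top cell of each gene. The calling step was tested on simulated library sums with counting error alone, which leave out differences between cells and between animals. Python 3.11.15, numpy 2.4.6, scipy 1.17.1, pandas 2.3.3, matplotlib 3.10.9 and R 4.3.3 were used.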

Additional observations from a re-analysis of the deposited data

How the results depend on the processing

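Against 63 higher and 102 lower genes, TMM and DESeq2 scaling both gave 77 and 63. No minimum of UMIs gave 117 and 274, and a minimum of 200 gave 18 and 22. The mean of per-cell CPM gave 88 and 156, and thinned cells 36 and 57. The 5 settings that drop cells gave 49 to 56 higher and 77 to 105 lower, and all deposited cells 79 and 105. Of list members 29 were higher and 16 lower; both scalings gave 55 higher, the minimum of 200 gave 17 and 9, and equal weight for 4 clusters, chosen after seeing the data, 28 lower. Among called genes, signs turned for Isg15 (log2 -0.022) and Ttr (0.085) over all deposited cells and for Insig1 (0.49) in thinned cells; the cause was not tested. Under at least 1 setting 27 uncalled genes and 17 list medians also changed sign. No paired analysis was possible because each group has 1 library. Depth limits genes under 50 UMIs.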

Other observations

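Some called genes outside every list were chosen after their values were seen. The amino acid transporter gene Slc7a5 had 25.6 CPM on control diet, 13.1 in wild type, 15.6 in Trem2 +/- and 12.0 in the knockout, a ratio of 0.468 to the control (0.342 to 0.640). Slc7a1, another amino acid transporter gene, was at 0.461 (0.282 to 0.749), from 73 UMIs over both libraries. Sesn2, a leucine sensor gene, was at 0.434 (0.255 to 0.732), from 64 UMIs. All 3 cuprizone libraries lay below the control for Slc7a5 and Slc7a1. Edn1, which encodes endothelin, had 12.4, 7.93, 5.19 and 3.99 CPM in the same order. Its ratio was 0.323 (0.191 to 0.534), from 71 UMIs over both libraries. The transcriptional repressor gene Bcl6 was at 0.404 (0.252 to 0.642), from 81 UMIs. Among higher genes Ctla2a, which encodes a protease inhibitor, had 1.65, 2.59, 1.68 and 12.4 CPM. Its ratio was 7.54 (3.32 to 21.2), from 87 UMIs over both libraries. The heparanase gene Hpse had 3 control UMIs and a ratio of 10.2 (3.33 to 51.2). The histone gene Hist2h3c2 was at 3.39 (1.98 to 6.16), from 113 UMIs over both libraries. The lysosomal galactosidase gene Gla was at 2.92 (1.41 to 6.77), from 56 UMIs, with wild type on cuprizone at 4.84.

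The gene models Gm42418, Gm26917 and AY036118 were lower in every cuprizone library than in the control, at 0.363, 0.301 and 0.253 of the control level in the knockout.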
